A study of Mus musculus with 31 samples.

Results

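The protocadherins measured on these arrays were the genes whose symbol starts with Pcdh, and 46 of the 19902 gene symbols matched to a probe met that rule. They comprised 7 genes of the alpha cluster, 22 of the beta cluster, 6 of the gamma cluster and 11 non-clustered protocadherins. The RefSeq table holds 70 genes of this family, so 24 had no matched probe, among them Pcdhgc3, Pcdhgc4, Pcdh11x and 14 other gamma genes. All 22 beta genes were represented, against 7 of 14 alpha genes and 6 of 22 gamma genes.

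Each of the 31 two-color arrays compared a Cy5 and a Cy3 sample of RNA from the forebrain of NMRI mice treated at day P5. Each sample was a pool of 6 hemispheres, from 3 males and 3 females per the labels, and the methods name the ipsilateral hemisphere. In Experiment 1, mice given MgSO4 (600 mg/kg, Cy5) were compared with control mice of the same litters (Cy3) at delays of 3 h and 6 h, with 4 and 7 arrays, and of 12 h and 24 h, with 4 arrays each. By the labels these controls received PBS under the skin, whereas the methods describe untreated controls and the intraperitoneal route. In Experiment 3, mice that underwent HI, the Rice and Vannucci procedure of ligating a carotid artery and then breathing a gas mixture low in oxygen, were labelled with Cy5. They were compared, 3 h and 12 h after the insult (3 arrays each), with control mice in Cy3. These controls were naive by the titles and had no intervention by the methods, so anesthesia and surgery cannot be told apart from HI. One treatment label of these Cy5 samples names MgSO4, against the titles and sources, and HI without MgSO4 was assumed. In Experiment 2 (3 arrays at 3 h and 3 at 12 h, MgSO4 at 600 mg/kg), the titles give MgSO4-treated HI mice in Cy5 and MgSO4-treated naive mice in Cy3. The methods describe MgHI against HI in the same dyes, and the study's figures place MgHI in Cy3. Experiment 2 is therefore given by channel, with no treatment assigned to either sign. No dyes were swapped, so a bias of the dyes cannot be told apart from an effect of treatment in any group. As pools of whole tissue were measured, fewer cells of a type and less RNA per cell cannot be told apart.

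Protocadherins form the largest branch of the cadherin superfamily, calcium-dependent adhesion proteins of the cell surface. In the clustered genes each variable exon has a promoter of its own, single neurons express different combinations, and the resulting cell-surface identity serves self-avoidance of neurites and synapse formation. Alpha and gamma transcripts join a variable exon to constant exons that all genes of the cluster share, whereas each beta gene is a single-exon unit without a constant part. The C-type genes, Pcdhac1, Pcdhac2 and Pcdhgc3 to Pcdhgc5, lie next to the constant exons and are expressed by most neurons rather than by random choice. Non-clustered members such as Pcdh8, Pcdh10, Pcdh17 and Pcdh19 mark particular regions and axon tracts of the developing brain. In the GRCm38.p6 assembly the 3 clusters neighbor each other on chromosome 18, and 14 of 14 alpha genes and 22 of 22 gamma genes end within the same stretch at the 3′ side. Whether a probe lies in a variable or a shared exon was not given in the sources used here, so alpha and gamma members cannot be taken as independent of each other.

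Values below are log2 ratios of the processed signals, Cy5 over Cy3, for a gene's brightest probe, so that 1 is a doubling. They are given as mean ± SD over arrays, each array being a pair of pools. A gene was tested in a group if Cy3 or Cy5 of its probe stood well above background on 66.7% of the arrays or more, and was called if limma's adjusted p was under 0.05 and the fold change was 1.5 or more.

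Most of the members with a probe were detected above background in Cy3 or Cy5. Of 46 members, 33 were tested in all 8 groups, 7 in some groups and 6 in none (Pcdhb11, Pcdhb19, Pcdhga1, Pcdhga5, Pcdhga10 and Pcdhgb1). All 11 non-clustered members were tested in every group, as were 5 of 7 alpha and 16 of 22 beta members, but 1 of 6 gamma members. This gamma member, Pcdhga9, was well above background in Cy3 on all 31 arrays, as were 2 alpha, 8 beta and 9 non-clustered members. Pcdhga1, Pcdhga5 and Pcdhga10 were not well above background in Cy3 on any array. The C-type genes ranged from Pcdhac2, tested in every group, to Pcdhac1 (10 arrays in Cy3 and 15 in Cy5) and Pcdhgc5 (10 and 7). Markers of the tissue were present, since 10 of 10 neuron, 7 of 7 astrocyte, 8 of 8 oligodendrocyte lineage, 8 of 8 microglia, 5 of 5 blood and 4 of 4 meninges markers were well above background in Cy3 on all 31 arrays, against 2 of 6 endothelial, 2 of 4 choroid plexus and 3 of 5 sex-linked markers.

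**Figure D1:**
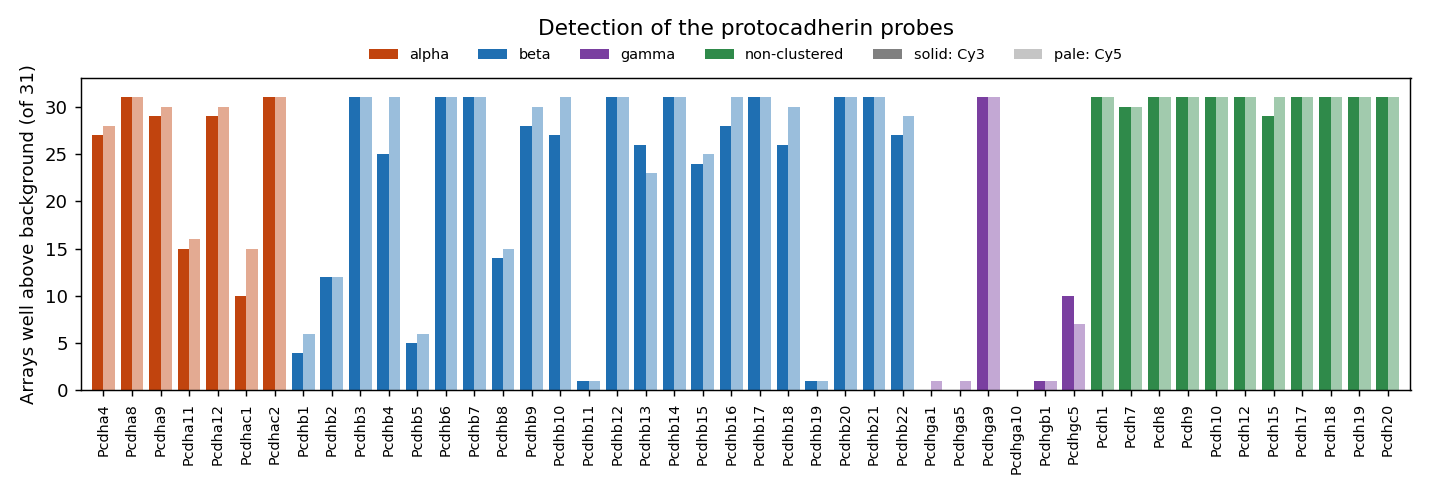
Number of arrays, of 31, on which the brightest probe of each of the 46 protocadherins was well above background in Cy3 and in Cy5, by cluster. Non-clustered members are detected on most or all arrays, and 20 members on all 31 in Cy3, while 3 gamma members are detected on none in Cy3.

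Experiment 1 asked what a single injection of MgSO4 changes in the neonatal brain over time. No protocadherin was called at 3 h (0 of 37 tested), 6 h (0 of 33), 12 h (0 of 34) or 24 h (0 of 35). Over all genes tested, limma called 0% at 3 h and 12 h, 0.0364% at 6 h and 0.00714% at 24 h. At an unadjusted p under 0.05, limma gave 3 members at 3 h (9.2% of all genes), 1 at 6 h (13.4%), 10 at 12 h (15.9%) and 5 at 24 h (11.3%). The methods' t-test called 0 members after Benjamini-Hochberg adjustment at each time, and without adjustment 1 member with a fold of 1.5 or more, Pcdhac2 at 12 h. All 10 members under an unadjusted p of 0.05 at 12 h had positive ratios (29.4% of those tested, against 10.7% of all genes), as had all 5 at 24 h (against 6.4%).

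The family leaned upward at 12 h. Of 34 members tested, 29 had a mean above 0, with a median of 0.35, where 53.1% of all genes were above 0 with a median of 0.02. Alpha members had a median of 0.50 (5 of 6 above 0), beta members 0.35 (14 of 16) and non-clustered members 0.25 (9 of 11). At 3 h the family's median was 0.05, with 24 of 37 above 0 (against 46.0% of all genes). Without replicate 1 of 3 h it was 0.15, with 30 of 38 above 0. At 6 h the family's median was -0.01 (16 of 33, against 49.3%) and at 24 h 0.10 (25 of 35, against 48.0%). The size of the 12 h median depended on normalization, as median signals with normexp background correction and loess gave 0.06, again with 29 of 34 members above 0. It was 0.60 without replicate 2 and 0.19 without replicate 4.

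The arrays of a time point spread widely. At 12 h the median over all members tested ranged from -0.05 to 0.66 between arrays, with an SD of 0.33. The 12 h median of alpha members was 0.15, 0.02, 0.71 and 1.06 on the 4 arrays. That of beta members was 0.23, -0.10, 0.59 and 0.57. Replicate 2 stood near 0 in both clusters. The median of 10 neuron markers on the same arrays was 0.34, -0.11, 0.59 and 0.51, also lowest on replicate 2, and 10 of 10 of these markers had means above 0 at 12 h (median 0.28). Astrocyte markers (0.24, 0.06, 0.29 and 0.32) and oligodendrocyte lineage markers (0.08, -0.19, 0.29 and 0.43) were lowest on replicate 2 too. The remaining lists were lowest on other arrays. Other markers at 12 h had medians of 0.20 for astrocytes, 0.12 for oligodendrocyte lineage, -0.20 for microglia, -0.38 for blood, 0.52 for choroid plexus, -0.01 for endothelium, 0.01 for meninges and 0.10 for sex-linked genes. The part of cell composition in the protocadherin values was not tested.

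Within single arrays, alpha members often had the same sign at 3 h and 6 h of MgSO4. All those tested had 1 sign on 4 of 4 arrays at 3 h, 6 of 7 at 6 h, 0 of 4 at 12 h and 0 of 4 at 24 h. At 3 h that sign differed between arrays, being negative on replicate 1 (alpha median -0.38) and positive on replicates 2, 3 and 4 (0.33, 0.49 and 0.28). The sets compared were not the same, with 5 members at 6 h, Pcdha11 added to them at 3 h and Pcdhac1 at 12 h and 24 h. At 12 h, 5 of 6 members were positive on replicates 1, 3 and 4, and at 24 h 4 of 6 shared a sign on each array. At 6 h the alpha medians ran from -0.86 to 0.79 over 7 arrays, negative on 4 and positive on 3, so that a mean near 0 joined arrays of opposite sign. The 2 lowest 6 h arrays, replicates 2 (-0.86) and 6 (-0.82), and the highest 12 h array, replicate 4 (1.06), were on 1 slide. Another slide held 4 arrays with positive alpha medians, namely 0.33 and 0.79 (6 h, replicates 3 and 7), 0.71 (12 h, replicate 3) and 0.14 (24 h, replicate 3). The part of the slide in these values was not tested. Over all probes tested, the 7 arrays at 6 h correlated with each other from -0.42 to 0.86, and 5 of 21 pairs were under -0.3. The direction at 6 h was kept as the dyes are stated, and 16 of 33 members were above 0 at 6 h, which would be 17 with the sign turned. On those arrays the medians of neuron markers were -0.24, -0.46, 0.37, -0.06, -0.11, -0.48 and 0.21, low on replicates 2 and 6 like the alpha medians. Oligodendrocyte lineage markers had -0.46, -0.72, 0.55, -0.15, -0.18, -0.64 and 0.33, with the same 2 arrays lowest. Astrocyte markers had 0.04, -0.28, 0.22, 0.13, 0.08, -0.10 and 0.06, again with these 2 arrays lowest. In the other lists the 2 lowest arrays were not this pair, and the part of any list was not tested.

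**Figure D2:**
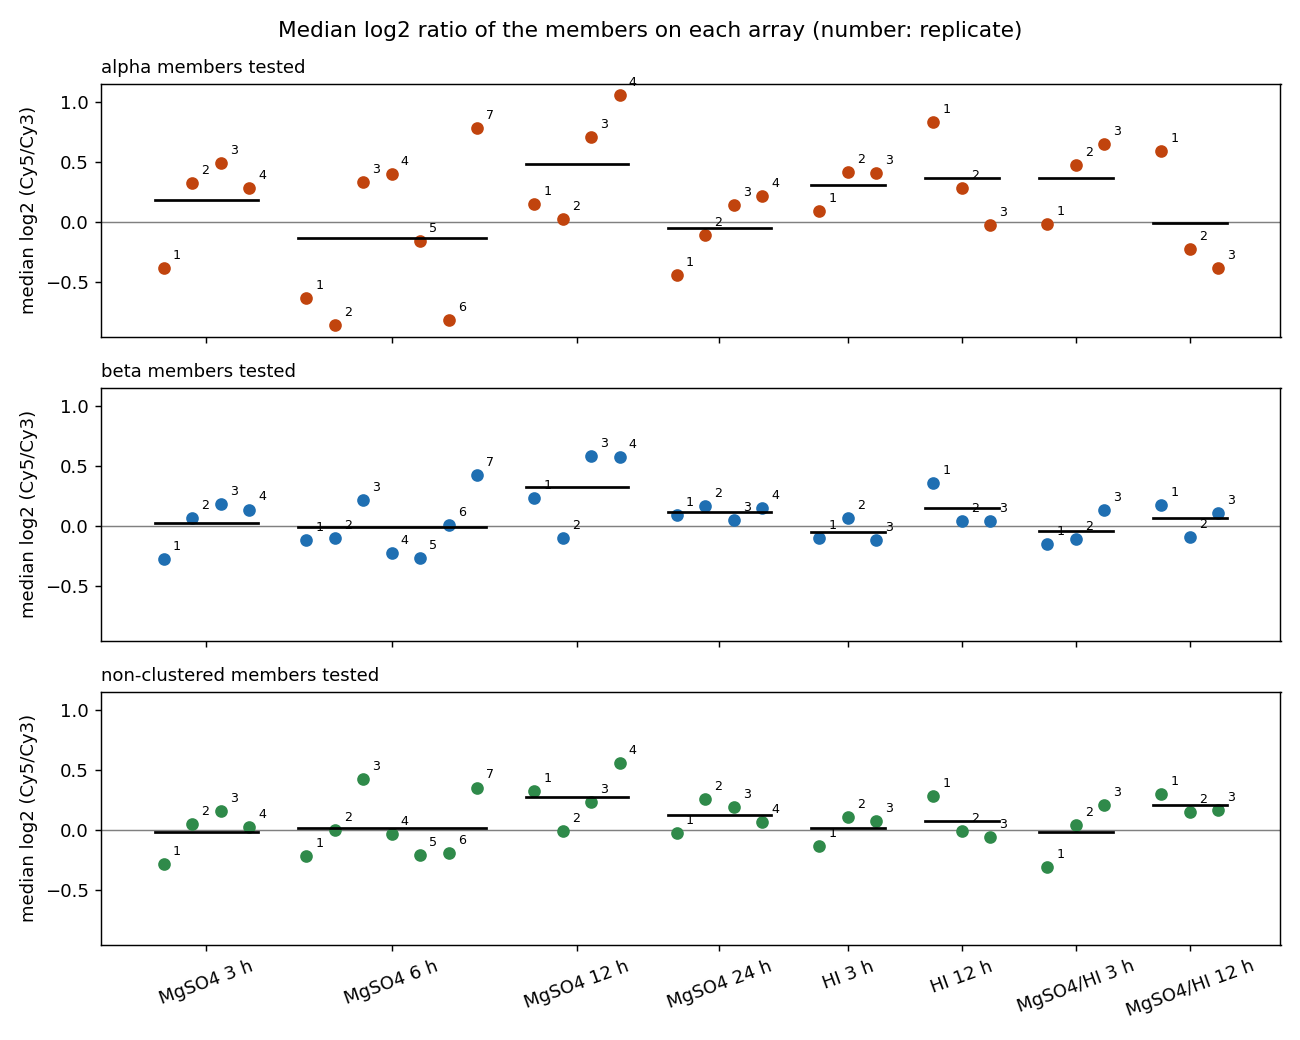
Median log2 ratio (Cy5 over Cy3) of the tested alpha, beta and non-clustered members on each of the 31 arrays, by group, 1 point an array and cluster. Alpha medians spread widest, from -0.86 to 0.79 at 6 h of MgSO4 and from 0.02 to 1.06 at 12 h.

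Among single members at 12 h, Pcdhac2, the C-type alpha gene needed for the spacing of serotonergic axons, had the smallest unadjusted p. Its ratios were 0.49, 0.21, 0.75 and 1.08 on the 4 arrays, a mean of 0.63 ± 0.37 (SD over 4 arrays) or 1.55-fold (limma adjusted p = 0.304). All 4 arrays lay above 0, replicate 2 being the lowest. Pcdh19, the X-linked gene mutated in an epilepsy of girls, had 0.52, 0.10, 0.82 and 1.19 (mean 0.66 ± 0.46, adjusted p = 0.304). Pcdh17, which organizes presynaptic assembly in the basal ganglia, had 0.58, 0.22, 0.80 and 1.84 (mean 0.86 ± 0.70, 1.82-fold, adjusted p = 0.304). All 4 arrays were positive for both genes, and replicate 4 was the highest. Pcdhb18, of the beta cluster, had the largest mean of the tested members, 1.34 ± 1.19, from 0.74, -0.02, 2.59 and 2.03 (adjusted p = 0.304). Its value rests on replicates 3 and 4, and at 6 h the same gene had 2.13 and 1.71 on replicates 3 and 7 and -0.26 to -0.82 on the other 5 arrays. Both of these 6 h arrays shared a slide with replicate 3 of 12 h. Pcdhb17 completed the 5 smallest p-values, with 0.51, -0.01, 0.68 and 0.65 (mean 0.46 ± 0.32).

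**Figure D3:**
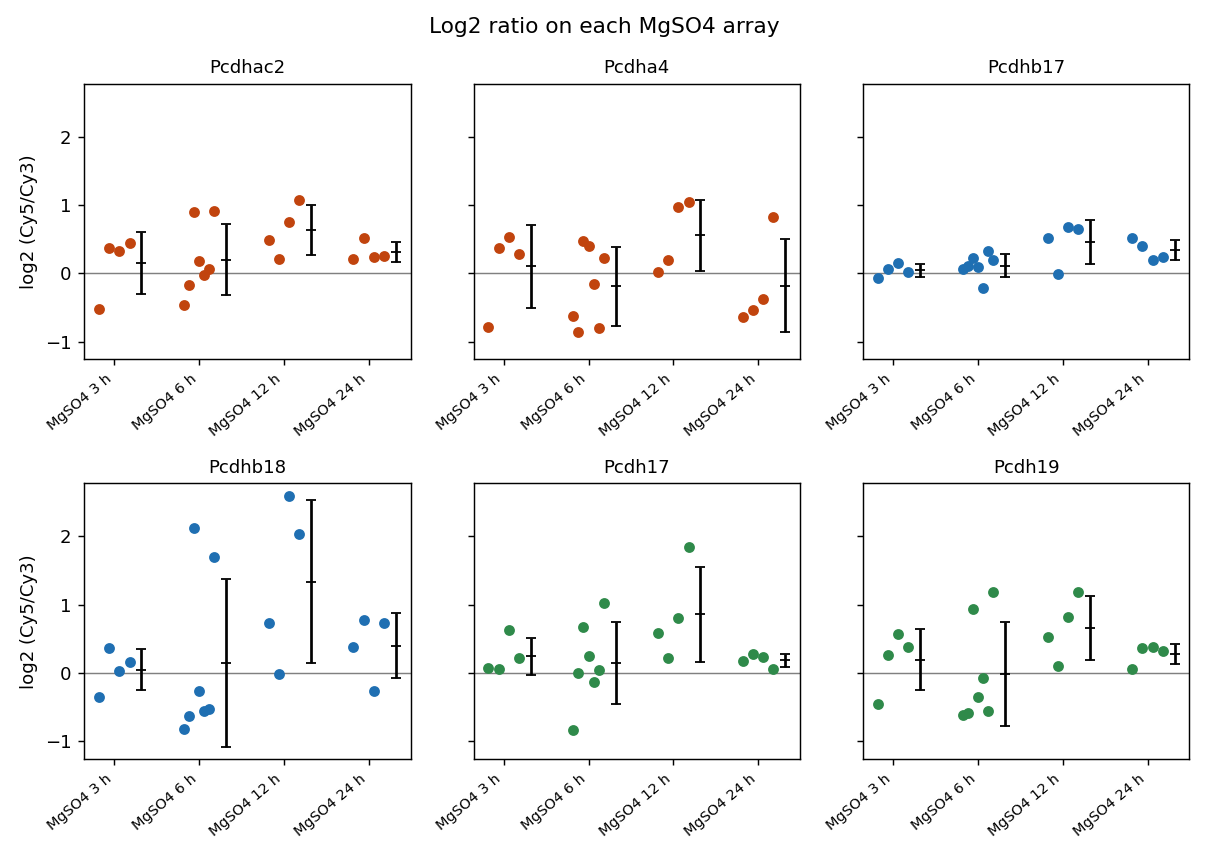
Log2 ratios of 6 protocadherins on the 19 MgSO4 arrays at 3, 6, 12 and 24 h, 1 point an array, with bars for mean ± SD. At 12 h Pcdhac2, Pcdh17 and Pcdh19 lie above 0 on 4 of 4 arrays, and Pcdhb18 reaches 2.59, while the 6 h arrays fall on both sides of 0 for each of these 4 genes.

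At 24 h the 5 smallest p-values belonged to members with small positive means. Pcdh15, a component of the hair-cell tip link, had 0.56, 0.54, 0.19 and 0.28 (mean 0.39 ± 0.19, adjusted p = 0.341). Pcdhb17 had 0.52, 0.39, 0.20 and 0.23 (mean 0.34 ± 0.15), and Pcdhac2 had 0.21, 0.52, 0.24 and 0.25 (mean 0.31 ± 0.15). Pcdh19 had a mean of 0.28 ± 0.15 and Pcdhb4 one of 0.39 ± 0.31. Each of these 5 genes was above 0 on 4 of 4 arrays, and none reached 1.5-fold.

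At 3 h the smallest p-values were of both signs. Pcdhb8 had -0.50, -0.13, -0.46 and -0.28 (mean -0.34 ± 0.17, adjusted p = 0.458). Pcdh1, best known from epithelia, had -0.28, -0.20, -0.20 and -0.17 (mean -0.21 ± 0.05, adjusted p = 0.516), the narrowest spread of any member named here at 3 h. Both were negative on 4 of 4 arrays. Pcdhb2 had a mean of 0.48 ± 0.48 with replicate 1 below 0, Pcdh12, an endothelial protocadherin, -0.23 ± 0.22, and Pcdhb9 0.19 ± 0.16. At 6 h the smallest p belonged to Pcdh12, whose lowest, median and highest values were -0.46, -0.21 and 0.01 (mean -0.21 ± 0.17, adjusted p = 0.365). Pcdh10, which guides striatal and thalamic axons, had -0.79, -0.57 and 0.36 (mean -0.35 ± 0.48). Pcdh15 had -0.25, 0.29 and 1.77 (mean 0.54 ± 0.80), Pcdh18 a mean of 0.25 ± 0.32, and Pcdhb12 one of -0.21 ± 0.29. The SD of Pcdh10, Pcdh15, Pcdh18 and Pcdhb12 was larger than the size of the mean.

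None of the remaining non-clustered genes was called after MgSO4. Pcdh20 had means of -0.01, 0.07, 0.01 and 0.10 at 3, 6, 12 and 24 h. Pcdh7 had 0.02, 0.01, -0.15 and 0.10, and Pcdh8, an activity-induced protocadherin that takes part in endocytosis of cadherins at synapses, -0.17, -0.11, 0.26 and 0.00. Pcdh9 had 0.15, 0.02, 0.44 and 0.10, the 12 h value coming with an SD of 0.32. Pcdh1 had means of -0.05, -0.11 and -0.06 at 6, 12 and 24 h, Pcdh12 of 0.00 and -0.10 at 12 and 24 h, and Pcdh18 of -0.04, 0.20 and 0.19 at 3, 12 and 24 h. Pcdh10 went from -0.35 at 6 h to 0.32 ± 0.45 at 12 h and 0.02 ± 0.34 at 24 h. Of the other C-type genes, Pcdhac1 was tested at 12 h (-0.14 ± 0.43) and 24 h (0.37 ± 0.68) and Pcdhgc5 at no time.

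The change between times was tested directly in a fit over the 4 MgSO4 groups. The fit took in every gene whose probe passed the background filter in at least 1 of these groups. No member was called for 6 h minus 3 h, 12 h minus 6 h or 24 h minus 12 h (0 of 38 each), where limma called 0%, 0.00673% and 0% of all genes. At an unadjusted p under 0.05 there were 1, 10 and 1 members, where 4.54%, 13.9% and 1.48% of all genes were under it. From 6 h to 12 h, 31 of 38 differences were positive with a median of 0.40 (52.4% of all genes, median 0.02), and all 10 members under that p were higher at 12 h, 26.3% of the members against 8.39% of all genes. The smallest p-values between 6 h and 12 h were those of Pcdhb2 (difference 1.25, SE 0.43, adjusted p = 0.364) and Pcdh10 (0.67, SE 0.25). Pcdhb2, Pcdhb5 and Pcdha11 were among those 10 members, although their probes passed the filter neither at 6 h nor at 12 h. From 12 h to 24 h, 31 of 38 differences were negative with a median of -0.23, where 8304 of 14853 genes were negative with a median of -0.03. The 7 positive differences became 15 with normexp and loess and 13 without replicate 3 of 12 h. These 2 steps share the 12 h arrays.

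Experiment 3 asked what HI itself changes. No protocadherin was called at 3 h (0 of 36 tested, while 3.82% of all genes were called) or at 12 h (0 of 34, against 0.0137%). At an unadjusted p under 0.05, limma gave 11 members at each time, and the methods' t-test called 0 after adjustment at both times and 2 without adjustment at 12 h, Pcdhb4 and Pcdh10. At 3 h these 11 members were 30.6% of those tested against 37.1% of all genes, 5 of them with positive and 6 with negative ratios. At 12 h, 27.9% of all genes were under that p, and 10 of the 11 members were positive (29.4% of those tested, against 14% of all genes).

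At 3 h after HI, 3 members passed the adjusted p threshold without reaching 1.5-fold (8.33% of those tested, against 14.9% of all genes). Pcdh20, a non-clustered gene of the cerebral cortex, had -0.35, -0.50 and -0.35 on the 3 arrays, a mean of -0.40 ± 0.08 (1.32-fold, adjusted p = 0.0307). The alpha genes Pcdha4 and Pcdha8 had 0.47, 0.38 and 0.26 (mean 0.37 ± 0.11, adjusted p = 0.0371) and 0.19, 0.49 and 0.47 (mean 0.38 ± 0.17, adjusted p = 0.0481). Each was on 1 side of 0 on 3 of 3 arrays. Pcdh7, with a brightest-probe mean of -0.29 ± 0.10 (adjusted p = 0.0547), and Pcdhb10, with 0.23 ± 0.07, came next. Among the remaining non-clustered genes, Pcdh18 (-0.21 ± 0.03) and Pcdh15 (-0.30 ± 0.18) were negative on 3 of 3 arrays and Pcdh1 (0.15 ± 0.05) and Pcdh19 (0.18 ± 0.20) positive on 3 of 3. Pcdh8, Pcdh9, Pcdh10, Pcdh12 and Pcdh17 had means between -0.13 and 0.08, with arrays on both sides of 0. The alpha cluster as a whole had 6 of 6 tested members above 0 (median 0.28), where beta members had a median of -0.05 (7 of 18 above 0) and non-clustered members 0.01 (6 of 11).

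At 12 h after HI the family's median was 0.16 (25 of 34 above 0, against 7303 of 14604 genes in all), and it was 0.05 without replicate 1 (18 of 34). Pcdh10 had 0.89, 0.66 and 0.53, a mean of 0.69 ± 0.18 (1.61-fold, adjusted p = 0.08). Pcdhb4 had 1.01, 0.51 and 0.62 (mean 0.72 ± 0.26, adjusted p = 0.0806). Pcdhga9, the detected gamma member, had 1.1, 0.71 and 0.42 (mean 0.74 ± 0.34, adjusted p = 0.0869). These 3 genes were positive on 3 of 3 arrays, and replicate 1 was the highest for each. Pcdh15 was the negative member, with -0.26, -0.79 and -0.65 (mean -0.57 ± 0.27), and Pcdh17 had 1.30, 0.42 and 0.55 (mean 0.76 ± 0.48). Pcdh19 had a mean of 0.64 ± 0.38 and Pcdha8 one of 0.60 ± 0.39, again with replicate 1 highest. The other non-clustered genes, Pcdh1, Pcdh7, Pcdh8, Pcdh9, Pcdh12, Pcdh18 and Pcdh20, had means between -0.25 and 0.17, and Pcdh20 (-0.05 ± 0.11) had arrays on both sides of 0 (difference from 3 h 0.35, SE 0.12, adjusted p = 0.227). Alpha members had a median of 0.44 (6 of 6 above 0), and the alpha medians of the 3 arrays were 0.83, 0.28 and -0.02. On the same arrays neuron markers had medians of 0.31, 0.22 and 0.09 and oligodendrocyte lineage markers 0.53, 0.46 and 0.29, in the same order. Endothelial markers had 0.31, 0.27 and 0.12, also in that order. Meninges and sex-linked markers were highest on replicate 2. Astrocyte markers had 0.28, 0.46 and 0.13, microglia markers -0.15, 0.14 and 0.04, blood markers -0.04, 0.72 and 0.18 and choroid plexus markers 0.06, 0.77 and 0.33, each highest on replicate 2. The part of these lists was not tested. Replicate 1 of 12 h shared a slide with replicate 3 of 3 h, and replicates 2 and 3 of 12 h were on another. That shared slide had alpha medians of 0.83 (12 h) and 0.41 (3 h). In Experiment 2 it had 0.66 (3 h, replicate 3) and 0.60 (12 h, replicate 1). The other slide had 0.28 and -0.02, and in Experiment 2 -0.23 and -0.39 (12 h, replicates 2 and 3). The part of the slide was not tested.

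Leaving out 1 array changed the calls at 12 h after HI. Without replicate 3 there were 8 called members (Pcdha8, Pcdha11, Pcdha12, Pcdhb4, Pcdhga9, Pcdh10, Pcdh17 and Pcdh19), without replicate 1 there was 1 (Pcdh15), and without replicate 2 there was 0. Between 3 h and 12 h no member was called (0 of 36, where 0% of all genes were), 6 members had an unadjusted p under 0.05, all higher at 12 h (16.7%, against 9.48% of all genes and 16.7% in either direction), and 29 of 36 differences were positive (54.6% of all genes). The smallest p-values were those of Pcdhb4 (difference 0.75, SE 0.18, adjusted p = 0.137) and Pcdh10 (0.62, SE 0.15, adjusted p = 0.143). Of the slides used, 1 held arrays of both times and the others arrays of 3 h only or of 12 h only. Time and slide therefore cannot be fully told apart in these differences.

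Experiment 2 set the channels of the MgSO4 and HI experiment against each other. At 3 h, 3 of 37 members were called (8.11%, against 5.47% of all genes), a share near that of all genes, and 8 had an unadjusted p under 0.05 (21.6%, against 26.5%). Pcdha11 was higher in Cy5, with 0.53, 0.92 and 0.77 on the 3 arrays, a mean of 0.74 ± 0.19 (1.67-fold, adjusted p = 0.0178). Pcdha8 was higher in Cy5, with 0.33, 0.76 and 0.96, a mean of 0.68 ± 0.32 (1.61-fold, adjusted p = 0.0382). Pcdhb21, a single-exon beta gene, was higher in Cy3, with -0.86, -0.58 and -0.48, a mean of -0.64 ± 0.19 (1.56-fold, adjusted p = 0.0254). All 3 arrays of each gene lay on 1 side of 0. Pcdh8 had -0.50, -0.46 and -0.32 (mean -0.43 ± 0.10), which passed the adjusted threshold (adjusted p = 0.0499) at 1.34-fold. With it 4 members passed that threshold (10.8%, against 8.93% of all genes).

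These 3 calls were not kept under every setting. With normexp and loess 0 members were called, as Pcdha11 had 0.14 (adjusted p = 0.21) and Pcdhb21 -0.40 and Pcdha8 0.57 fell short of 1.5-fold. Without replicate 2 no member was called either, with adjusted p between 0.0629 and 0.088 for the 3 genes. Without replicate 1 there were 4 calls (Pcdha4, Pcdha8, Pcdha11 and Pcdhb9) and without replicate 3 there were 3 (Pcdha11, Pcdhb13 and Pcdhb21), so Pcdha11 alone was in both lists. The Pcdha11 probe was well above background on only 15 of 31 arrays in Cy3 and 16 in Cy5, and was tested in 4 of 8 groups. In 1 limma fit over all 8 groups its adjusted p was 0.424, against 0.141 for Pcdha8 and 0.0593 for Pcdhb21.

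Around these genes the family was balanced at 3 h. Alpha members had a median of 0.36 (5 of 6 above 0), beta members -0.01 (9 of 19) and non-clustered members -0.06 (5 of 11). The alpha medians of the arrays were -0.01, 0.47 and 0.66, and neuron markers on these arrays had -0.16, 0.12 and 0.30, in the same order. Oligodendrocyte lineage markers (-0.03, -0.02 and 0.28), choroid plexus markers (-0.46, 0.04 and 0.11) and blood markers (-0.113, -0.105 and -0.099) were in that order too. The remaining lists were in another order, and the part of any list was not tested. Replicates 1 and 2 shared a slide and replicate 3 was on another, and the part of the slide was not tested. Besides Pcdh8, the non-clustered genes had means between -0.17 (Pcdh12) and 0.32 (Pcdh7) at 3 h, and Pcdh18 (0.21 ± 0.19) and Pcdh20 (0.13 ± 0.05) were positive on 3 of 3 arrays. In Experiment 3, Pcdha8 had a mean of 0.38 at 3 h, Pcdha11 0.19 ± 0.80 and Pcdhb21 -0.06 ± 0.16.

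At 12 h in Experiment 2 no member was called (0 of 39, where limma called 0% of all genes), 7 had an unadjusted p under 0.05 (17.9%, against 24.2% of all genes), and the methods' t-test called 0. Pcdhb4 had 0.41, 0.40 and 0.59 (mean 0.47 ± 0.11, adjusted p = 0.0872). Pcdhb6 had a mean of 0.40 ± 0.13, Pcdhb17 0.34 ± 0.11 and Pcdhb5 0.87 ± 0.64. The C-type gene Pcdhgc5 had -0.38, -0.61 and -0.18 (mean -0.39 ± 0.22, adjusted p = 0.134), the only group in which it was tested. Pcdhac1 had 1.74, 1.33 and -0.50 (mean 0.86 ± 1.20), a spread larger than its mean, and Pcdhac2 had a mean of 0.22 ± 0.19. Pcdh7 had 0.69, 0.30 and 0.19 (mean 0.39 ± 0.27). Pcdh9 (0.26 ± 0.16) and Pcdh19 (0.27 ± 0.14) were also positive on 3 of 3 arrays, Pcdh8 (-0.20 ± 0.17) and Pcdh12 (-0.17 ± 0.04) were negative on 3 of 3, and Pcdh1, Pcdh10, Pcdh15, Pcdh17, Pcdh18 and Pcdh20 had arrays on both sides of 0. Between 3 h and 12 h no member was called (0 of 40, where 0% of all genes were) and 2 had an unadjusted p under 0.05 (3.56% of all genes), Pcdhb21 (difference 0.52, SE 0.15, adjusted p = 0.999) and Pcdha4 (-0.75, SE 0.28). The times were split between slides as in Experiment 3.

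**Figure D4:**
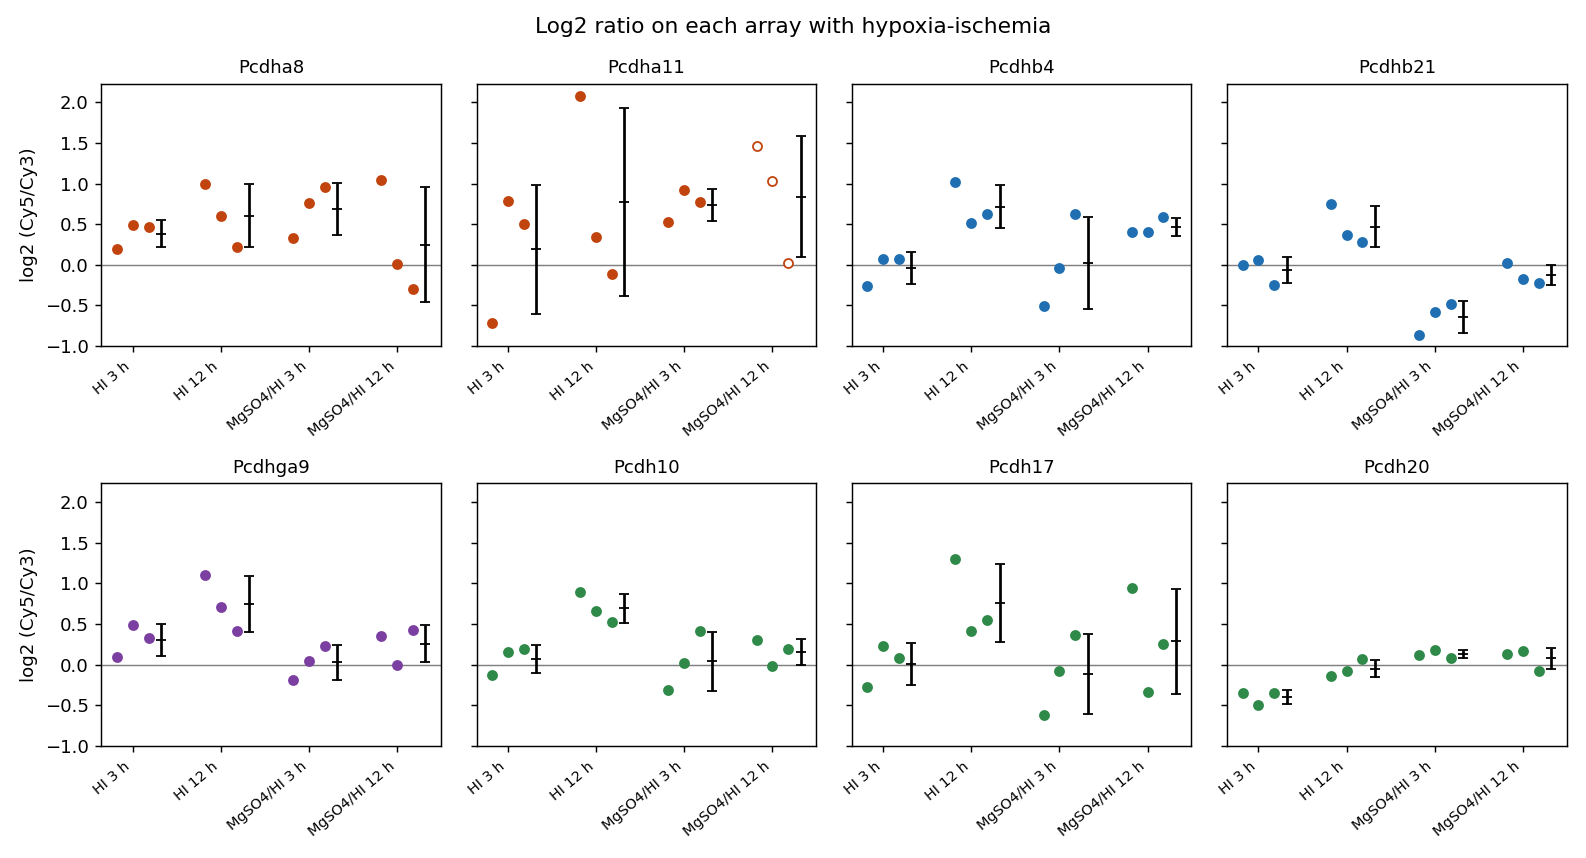
Log2 ratios of 8 protocadherins on the 6 HI arrays (Experiment 3) and the 6 arrays of Experiment 2, at 3 h and 12 h, 1 point an array, with bars for mean ± SD. Pcdha8 and Pcdha11 lie above 0 and Pcdhb21 below 0 on 3 of 3 arrays at 3 h in Experiment 2, and Pcdh10 and Pcdhb4 lie above 0 on 3 of 3 arrays at 12 h of HI.

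**Figure D5:**
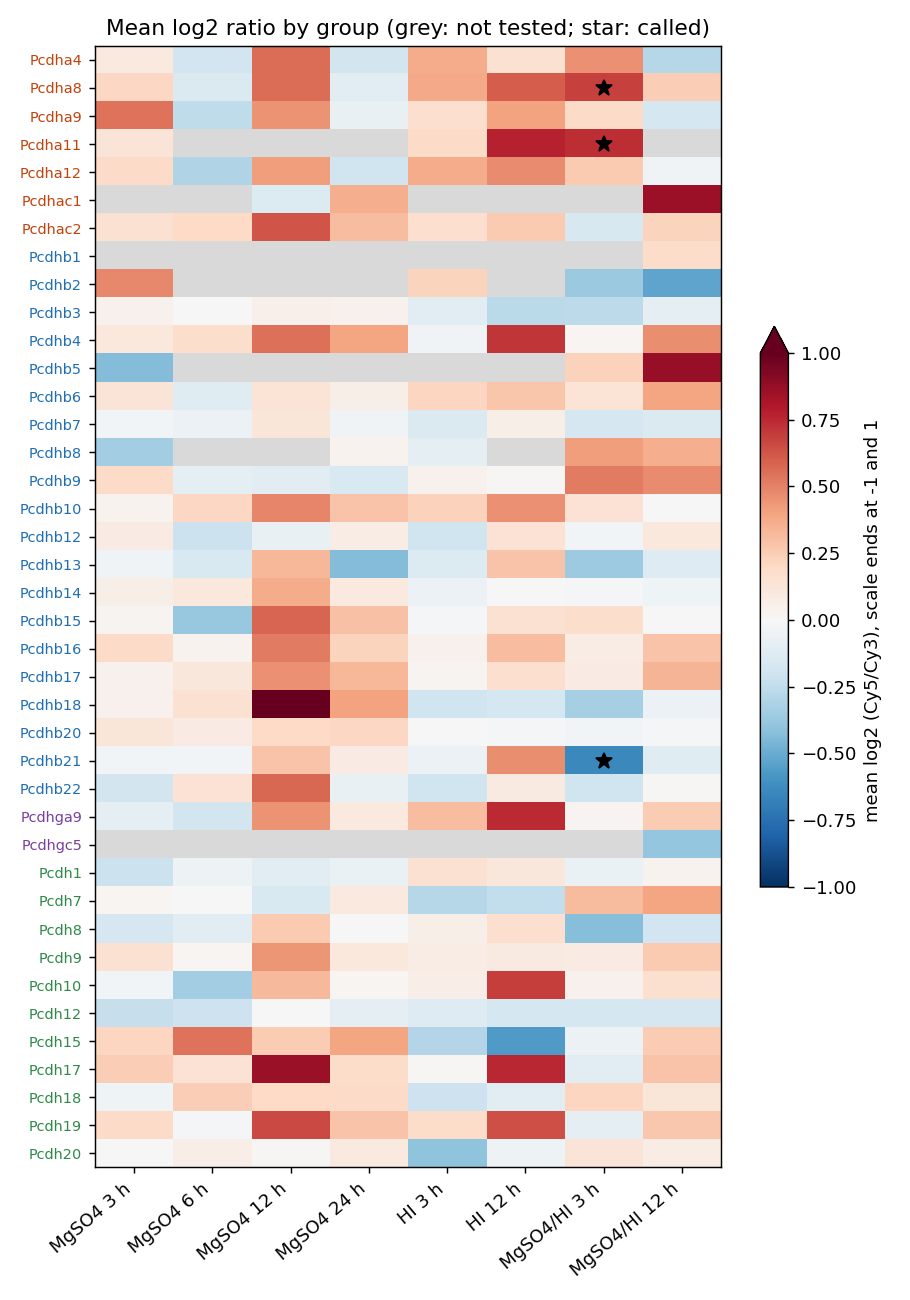
Heat map of the mean log2 ratio of every tested protocadherin in each of the 8 groups, 1 row a member, by cluster. Grey cells were not tested, stars mark called members, and the color scale is cut at its ends. The MgSO4 group at 12 h has 29 of 34 members above 0, and at 3 h of Experiment 2 Pcdha11 (0.74) and Pcdhb21 (-0.64) are the highest and the lowest.

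Several probes were available for 7 members, and for some of them a dimmer probe gave another result than the brightest. A Pcdh7 probe for a different RefSeq transcript had 0.76 ± 0.16 at 3 h of HI and was called (1.70-fold, adjusted p = 0.0169), against -0.29 on the brightest probe. At 12 h of HI it had 0.96 ± 0.15 but was well above background on 1 of 3 arrays only and was not tested. A Pcdh10 probe for a different transcript had 0.66 ± 0.11 at 3 h of HI and was called (1.58-fold, adjusted p = 0.0169), against 0.07 ± 0.17 on the brightest, and at 12 h of HI both probes were close, at 0.67 ± 0.45 and 0.69. For Pcdh9, whose probes name the same transcript, one probe was called at 3 h of Experiment 2 with -0.68 ± 0.29 (adjusted p = 0.0333) and had -1.14 ± 0.19 at 12 h (2.21-fold, adjusted p = 0.083), where the brightest had 0.08 and 0.26. The second Pcdhga9 probe had -0.56 ± 0.17 and -0.75 ± 0.32 in these groups, against 0.03 and 0.26, and the same pair of probes gave 0.69 and 0.74 at 12 h of HI. At 6 h of MgSO4 the second probes of Pcdha8 (-1.17 ± 0.83) and Pcdhac2 (-1.09 ± 0.78) were negative on 7 of 7 arrays without being tested, being well above background on 3 and 4 arrays, and their brightest probes had -0.14 and 0.20. Pcdh15 had 6 probes, of which the brightest was the only one tested in every group. In HI at 12 h a second tested probe of Pcdh15 had 0.51 ± 0.50, against -0.57 ± 0.27 on the brightest. At 3 h of Experiment 2 the second Pcdhac2 probe was tested and had 0.66 ± 0.69, against -0.16 ± 0.24. Direction therefore depended on the probe for Pcdh7, Pcdh9, Pcdh15, Pcdhac2 and Pcdhga9 in the groups given.

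Regulators and partners of protocadherins, together with other genes of the cadherin superfamily and catenins, were followed as a list of 69. Of these, 68 were on the array and 61 were tested in each group. The list held regulators of promoter choice in the clusters, such as Ctcf, which loops enhancers to promoters, and the cohesin subunits Rad21 and Smc3. It also held cytoplasmic partners such as Ptk2 and the Wave complex, and neuroligins. The other cadherins (35) and the catenins (6) were listed as relatives and not as partners of protocadherins. None of the list was called after MgSO4 (0 of 61 at each time) or after HI (0 of 61 at 3 h and 12 h). At an unadjusted p under 0.05, 17 members of the list had positive and 2 negative ratios at 12 h of MgSO4 (19 of 61, against 15.9% of all genes). There were 3 at 3 h, 3 at 6 h and 13 at 24 h, against 9.2%, 13.4% and 11.3% of all genes. After HI there were 10 positive and 11 negative ones at 3 h (21 of 61, against 37.1%) and 18 positive and 1 negative at 12 h (19 of 61, against 27.9%). The list's median was 0.02, -0.01, 0.23 and 0.10 over the 4 times of MgSO4, with 50 of 61 above 0 at 12 h. It was 0.01 and 0.18 after HI. Within the list at 12 h of MgSO4, catenins had a median of 0.40 (5 of 5 above 0), regulators of promoter choice 0.21 (9 of 11), cytoplasmic partners 0.23 (11 of 15), neuroligins 0.33 (2 of 2) and other cadherins 0.21 (23 of 28). Ctnnb1, which encodes beta-catenin, had a mean of 0.40 ± 0.34 and Ctcf one of 0.18 ± 0.11 there. At 3 h of Experiment 2 the list's median was -0.04 and 2 of its genes were called (3.28%, against 5.47% of all genes). They were Cdh18, a classical type II cadherin, higher in Cy3 with a mean of -1.14 ± 0.26 (adjusted p = 0.00984), and Nipbl, the cohesin loader, higher in Cy5 with 0.90 ± 0.50 (adjusted p = 0.0409). At 12 h of Experiment 2 none was called (0 of 61), with a median of 0.09 and 14 genes under an unadjusted p of 0.05 (24.2% of all genes).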

How the data were processed

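Two-color Agilent whole mouse genome arrays were analysed. Scans were read by the authors with Agilent's Feature Extraction (version 10.5.1.1). Per the file headers, the deposited processed intensity of a spot is background-subtracted and dye-normalized within each array (linear and LOWESS). The deposited series table holds the authors' log10 ratio of Cy5 to Cy3, with undetected features at 0 (13.7% to 27.5% of features). From the deposited intensities, log2 ratios were computed without spots marked as outliers (0.351% to 1.02% of spots), averaging replicate spots. Probes (39429) were named through RefSeq accessions, which gave 27427 a symbol, and 930 symbols containing Rik were left out. Spots well above background made up 45.2% to 69.7% in Cy3 and 54.4% to 70.2% in Cy5, no spot was saturated, and the number of arrays limits the precision.

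Samples were grouped by title. The mean log2 ratio of a group was set against 0 by limma 3.58.1 in R 4.3.3, with p-values adjusted by Benjamini-Hochberg over all probes tested, and times were compared by contrasts. These contrasts took in probes that passed the filter in at least 1 group of the fit. Arrays are labelled biological replicates, and each is a pair of pools. Named members are those called on every array with 1 sign or, where fewer than 3 were called, the 5 with the smallest p, plus all non-clustered and C-type genes and those with discordant probes. Members, partner and cell type marker lists were chosen with earlier results of these data known. Alternatives were normexp (offset 50) with loess, no filter, median centring, the series table, slide or replicate blocks, 1 joint fit, the methods' t-test, another probe choice and leaving out arrays. Statistics were tested on simulated data. No sequence was printed, as the probe sequences were not given here. The earliest time of the study was not analysed here.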

Additional observations from a re-analysis of the deposited data

Results flagged for a closer look

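In 151 sets of 4 to 7 arrays, each of a tested member or of a cluster median, 6 held an array that stood apart from the others by Dixon's criterion. At 5%, chance would give about 7.55 if the sets were independent, but they share arrays. At 3 h after MgSO4, replicate 1 was the lowest array for Pcdhb14 (-0.29), Pcdhb21 (-0.57), Pcdhac2 (-0.52) and Pcdh7 (-0.32), the other 3 arrays lying above 0 for each. At 6 h, replicate 3 was the highest for Pcdhb22 (1.80). At 24 h, replicate 2 was the highest for Pcdhac2 (0.52).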

How the results depend on the processing

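The counts of called members were 0 under every setting run at 3, 6 and 24 h of MgSO4, at 12 h of Experiment 2 and for the 5 differences between times, with exceptions elsewhere as follows. At 12 h of MgSO4, 1 fit over all 8 groups called 1 (Pcdh17) and the methods' t-test, unadjusted, 1 (Pcdhac2). At 3 h of HI, taking the probe with the largest ratio called 2 (Pcdh7 and Pcdh10). At 12 h of HI, normexp with loess called 1 and the joint fit 1 (Pcdh10 both times), the methods' t-test, unadjusted, 2 (Pcdhb4 and Pcdh10), and leaving out 1 array between 0 and 8. The 3 calls at 3 h of Experiment 2 became 0 with normexp and loess, 0 without the filter on dim probes, 0 in the joint fit and 0 by the methods' t-test with adjustment, and between 0 and 4 when 1 array was left out. The cause was not tested. The number of members above 0 at 6 h of MgSO4 was 10 with normexp and loess, against 16, and between 10 (without replicate 7) and 19 when 1 array was left out. At 3 h of HI it was between 13 (without replicate 2) and 21, against 20. Medians of the family near 0 crossed it, by less than the SD between arrays. At 6 h of MgSO4 the median of -0.01 became 0.01 with the probe of the largest ratio, and lay between -0.11 and 0.03 when 1 array was left out. At 3 h of HI the median of 0.02 lay between -0.07 (without replicate 2) and 0.06. At 3 h of Experiment 2 the median of 0.03 became -0.01 with the probe of the largest ratio, and lay between -0.09 (without replicate 3) and 0.14. From 12 h to 24 h of MgSO4 the 7 positive differences became 15 with normexp and loess, 13 without 12 h replicate 3 and 11 without 24 h replicate 1, and from 3 h to 6 h the 16 positive ones became 10 without 6 h replicate 7.

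Same-numbered arrays did not pair, as their deviations correlated from -0.44 to 0.69 over 18 pairs, 7 of them over 0.1, and 5 of 18 correlated best with their own number. With the replicate number as a block, 0 members were called in each of the 5 differences, the same count as without it. Slide as a fixed block, added after the data were seen, gave 0 for 12 h minus 6 h and 24 h minus 12 h, and was not run for 6 h minus 3 h, where no slide holds both times. Slide as a random block could not be estimated with the 3 arrays of the HI groups and was not run at 12 h and 24 h of MgSO4, where each array has a slide of its own. For most gamma genes, signal near background limits what these arrays can show.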
